A study of Rattus norvegicus with 48 samples.

Results

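The comparison of 400 with 150 mg/kg myclobutanil in rat testis rests on 12 of the 48 libraries of the series, 6 per dose, chosen by tissue and dose from the sample titles. The animals were adult male Sprague-Dawley rats, strain Crl:CD (SD), 8 to 10 weeks old at the start, dosed daily for 14 days by oral gavage. The groups used here are myclobutanil at 400 mg/kg (title numbers 2421 to 2426) and at 150 mg/kg (2415 to 2420), with 30 mg/kg (2409 to 2414) and vehicle (2403 to 2408) for context, and the liver libraries that carry the same numbers. All groups, vehicle included, are labelled with corn oil at 4 ml/kg body weight. Vehicle libraries 2407 and 2408 are at dose 0 by title and dose label but carry myclobutanil as their exposure label, so values set against vehicle are also given with the other 4 vehicle libraries only, as a check chosen after the data were seen. Polyadenylated RNA of the organ was sequenced, and in such bulk samples fewer cells of a type and less RNA per cell cannot be told apart. The files give Ensembl gene IDs without names, so the genes are described as groups and 4 by their ID. For the same reason the labelled tissue could not be set against its marker genes.

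Myclobutanil is a triazole fungicide. Triazoles bind the sterol demethylase of fungi, a cytochrome P450, and block the synthesis of the fungal membrane sterol. The mammalian form of the enzyme takes part in cholesterol synthesis, and several other P450 enzymes act in the synthesis of androgens and estrogens and in the breakdown of retinoic acid. In the adult testis, germ cells at successive stages of spermatogenesis make up most of the seminiferous tubules and are supported there by Sertoli cells, while Leydig cells between the tubules make testosterone. Which of these genes the IDs stand for is not known from the files.

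Between 30.9 and 43.1 M reads per library fell on genes at 400 mg/kg, and between 34.9 and 49.2 M at 150 mg/kg. The deepest library of each dose, 400 mg/kg 2421 and 150 mg/kg 2415, stood apart from the other 5 of its group. Totals averaged 34.7 ± 4.37 M against 38.2 ± 5.55 M (SD, 2-sided exact permutation p = 0.294, n = 6 per dose), and among the 5 and 5 others the difference of 400 minus 150 mg/kg was -2.97 M (exact permutation p = 0.0159, where 0.00794 is the smallest possible). CPM are gene reads scaled to the size of the library, and their log2 values correlated at 0.987 to 0.99 between libraries of a dose and at 0.986 to 0.99 between libraries of the 2 doses, across genes. The first principal component of the 12 libraries held 13.9% of the variance. It placed 400 mg/kg 2424 at one end (-26.6) and 150 mg/kg 2418 at the other (24.1), with 400 mg/kg libraries from -26.6 to 1.78 and 150 mg/kg libraries from -11 to 24.1. The share of reads set aside for low alignment quality was 2.72% to 2.84% in vehicle 2403 to 2407 and 30 mg/kg 2409 to 2413. In vehicle 2408, 30 mg/kg 2414 and all 12 libraries of 150 and 400 mg/kg it was 2.52% to 2.57%. Differences of 150 or 400 mg/kg from vehicle therefore cannot be told apart from this split. With vehicle 2407 and 2408 left out, no vehicle library lies in the lower range.

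The comparison asks how the testis transcriptome at the top dose differs from that at the dose below it. By the edgeR quasi-likelihood fit of all 24 testis libraries, 106 genes rose and 28 genes fell with the higher dose at a Benjamini-Hochberg adjusted p under 0.05. The 134 genes are 0.776% of the 17261 tested, with 0.614% higher and 0.162% lower, and 2526 genes, 14.6%, had an unadjusted p under 0.05. The changes were small. The median was 1.24-fold in either direction, 11 genes changed at least 1.5-fold and 3 at least 2-fold, all 3 of them higher and with a mean over both doses under 1 CPM. In 57 of the 134 genes the 6 libraries of one dose did not overlap the 6 of the other in CPM, as in 0.991% of all genes tested. In 130 of the 134 every 400 mg/kg library lay on the same side of the 150 mg/kg mean, as in 3317 of all 17261 genes tested. The same libraries chose the genes, so neither count is independent support. Adjusted p of the called genes ranged from 0.0139 to 0.0499, and a further 256 genes lay between 0.05 and 0.1.

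**Figure D1:**
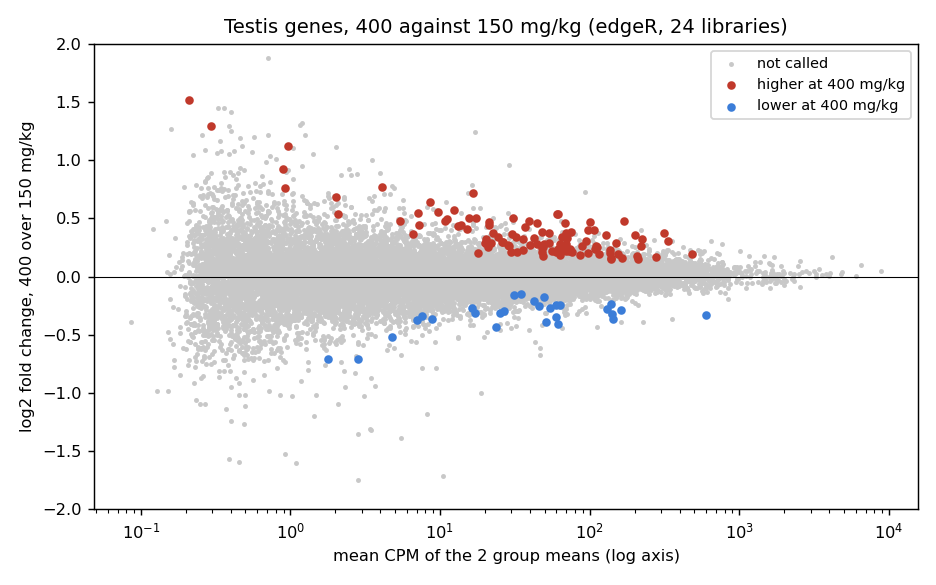
Each point is a gene, with the mean CPM of the 400 and 150 mg/kg group means on a log axis and the log2 fold change of 400 over 150 mg/kg on the vertical axis, where 6 genes that were not called lie beyond the limits. The 106 genes that rose (red) and the 28 that fell (blue) lie mostly above 10 CPM, and all but 11 of the 134 change by less than 1.5-fold.

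The number of calls depended on which libraries entered the fit and on the tool, while the fold changes moved little. Fitted on the 12 compared libraries alone, 1 gene was called, 0.00594% of the 16840 tested. The 12 libraries are those that chose the genes, so a kept direction or a small unadjusted p is not independent support. Of the 133 called genes tested there, 133 kept their direction and an unadjusted p under 0.05, while adjusted p was under 0.1 for 105 and at most 0.156. Their median standard error was 0.067 on the log2 scale with the 12 libraries and 0.068 with all 24, on 10 and 20 residual degrees of freedom. With the deepest library of each dose left out, 5 libraries against 5, 1 gene was called as well. It was ENSRNOG00000053368, and in the fit of the 12 libraries it was ENSRNOG00000034190. DESeq2 called 400 genes with all 24 libraries, 2.32% of those tested, and 425 with the 12. With a quality weight for each library, limma-voom called 218 and 24.

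**Figure D2:**
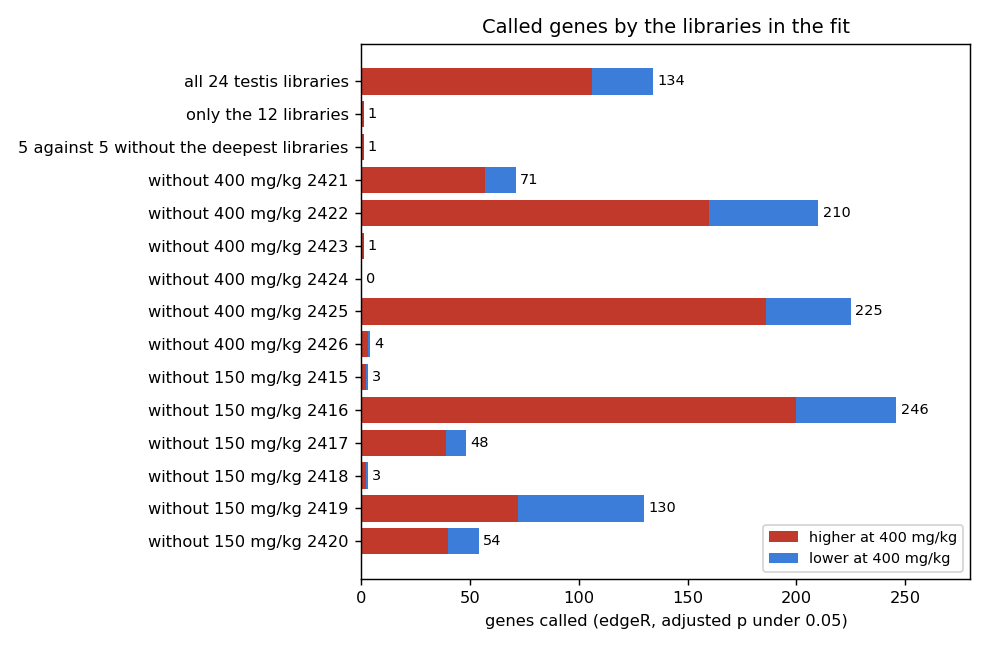
Each bar is the number of genes called by edgeR in a fit, split into genes higher (red) and lower (blue) at 400 mg/kg. The count is 134 with all 24 testis libraries, 1 with only the 12 libraries, and 0 to 246 when 1 of the 12 is left out.

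Leaving out 1 library moved the count over a wide range. No gene was called without 400 mg/kg 2424 (2162 at an unadjusted p under 0.05), 1 without 400 mg/kg 2423, 4 without 400 mg/kg 2426, and 3 without 150 mg/kg 2415 or without 150 mg/kg 2418. Without 400 mg/kg 2421 or 150 mg/kg 2417 or 2420, 71, 48 and 54 genes were called. Counts were higher without 400 mg/kg 2422 or 2425 (210 and 225) and without 150 mg/kg 2416 (246), and without 150 mg/kg 2419 the total was 130, with 72 higher and 58 lower. In each of these fits at least 133 of the 134 genes kept their direction, but each reuses all but 1 of the 12 libraries that chose them. The median log2 fold change of the genes called higher stayed between 0.28 and 0.35 and that of the genes called lower between -0.34 and -0.28.

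The 4 IDs were taken from called genes with a mean of at least 1 CPM. Every 400 mg/kg library also had to lie on 1 side of the 150 mg/kg mean. Outside this rule, 3 called genes rose at least 2-fold. Under it, ENSRNOG00000034190 rose the most. At 400 mg/kg it had 5.49, 4.61, 5.09, 6.41, 5.01 and 4.598 CPM in libraries 2421 to 2426. At 150 mg/kg it had 2.75, 3.26, 3.28, 2.84, 2.70 and 3.47 CPM in libraries 2415 to 2420. Every 400 mg/kg library was above every 150 mg/kg library, and the values rest on 98 to 236 reads per library. The means were 5.20 ± 0.681 CPM and 3.05 ± 0.326 CPM (SD, n = 6 each), a log2 fold change of 0.77 (SE 0.14, edgeR adjusted p = 0.0222), or 1.71-fold. With the 12 libraries alone it was 0.77 (SE 0.10, edgeR adjusted p = 0.0255), and over 27 alternatives adjusted p ran from 3.14e-07 to 0.171 and passed the threshold in all but 8. Vehicle was at 3.31 ± 1.01 CPM and 30 mg/kg at 4.54 ± 0.688 CPM. Vehicle 2408, the deepest of its group, was at 5.18 CPM, and the other vehicle libraries at 2.51 to 3.67 CPM. Against vehicle, with which both comparisons share libraries, the log2 fold change was 0.64 at 400 mg/kg (SE 0.14, edgeR adjusted p = 0.0158, as 3.32% of all genes passed there) and -0.13 at 150 mg/kg (SE 0.15, edgeR adjusted p = 0.937, where 0.0232% passed). Without vehicle 2407 and 2408, vehicle was at 3.03 ± 0.485 CPM (SD, n = 4), and the log2 fold changes were 0.78 at 400 mg/kg (SE 0.13, edgeR adjusted p = 0.00669, with 1.39% of all genes passing) and 0.0096 at 150 mg/kg (SE 0.13, edgeR adjusted p = 0.9999, with 0.0344% passing), so the sign at 150 mg/kg turned.

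Under the same rule, ENSRNOG00000053368 was the second of the genes that rose. It had 19.2, 21.4, 21.2, 20.03, 19.6 and 22.7 CPM in the 400 mg/kg libraries 2421 to 2426. In the 150 mg/kg libraries 2415 to 2420 it had 18.6, 11.3, 10.8, 9.36, 12.3 and 12.9 CPM. The doses did not overlap, but 150 mg/kg 2415 came within 1 CPM of the lowest 400 mg/kg library, while the other 5 of its dose were at 12.9 CPM or below. The means were 20.7 ± 1.31 CPM and 12.5 ± 3.21 CPM (SD, n = 6 each), and the log2 fold change was 0.72 (SE 0.16, edgeR adjusted p = 0.0383). Vehicle, at 19.5 ± 4.18 CPM, lay near the 400 mg/kg level, and 30 mg/kg was at 14.8 ± 3.10 CPM. The log2 fold change against vehicle was 0.086 at 400 mg/kg (SE 0.15, edgeR adjusted p = 0.808) and -0.63 at 150 mg/kg (SE 0.16, edgeR adjusted p = 0.314), and without vehicle 2407 and 2408 it was 0.016 and -0.70 (vehicle 20.5 ± 3.08 CPM, SD, n = 4, edgeR adjusted p = 0.976 and 0.177). The call was lost with the 12 libraries alone (0.72, edgeR adjusted p = 0.0588) and in 12 of 27 alternatives, over which adjusted p ran from 8.64e-05 to 0.190. The 12 liver libraries of 400 and 150 mg/kg held 0 reads of this gene, which allows up to 0.0779 CPM in the shallowest of them, at 3 reads.

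ENSRNOG00000017901 led the genes that fell. Its values were 1.74, 1.41, 1.21, 1.29, 1.22 and 1.19 CPM in the 400 mg/kg libraries 2421 to 2426, against 1.72, 2.08, 2.44, 2.53, 2.04 and 2.50 CPM in the 150 mg/kg libraries 2415 to 2420. The doses overlapped in their deepest libraries, 400 mg/kg 2421 and 150 mg/kg 2415, and nowhere else. Means were 1.34 ± 0.211 CPM and 2.22 ± 0.322 CPM (SD, n = 6 each), which gave a log2 fold change of -0.71 (SE 0.16, edgeR adjusted p = 0.0358). It rests on 37 to 91 reads per library. Vehicle was at 1.51 ± 0.291 CPM and 30 mg/kg at 1.32 ± 0.324 CPM. Against vehicle the log2 fold change was -0.16 at 400 mg/kg (SE 0.16, edgeR adjusted p = 0.631) and 0.55 at 150 mg/kg (SE 0.16, edgeR adjusted p = 0.513). Without vehicle 2407 and 2408 these were -0.28 and 0.43 (vehicle 1.64 ± 0.262 CPM, SD, n = 4, edgeR adjusted p = 0.435 and 0.938). The call was lost with the 12 libraries alone (edgeR adjusted p = 0.0588) and in 11 of 27 alternatives, over which adjusted p ran from 0.00343 to 0.190.

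ENSRNOG00000015957 was the second of the genes that fell. It had 2.49, 2.79, 1.12, 2.07, 2.44 and 1.98 CPM in the 400 mg/kg libraries 2421 to 2426, against 3.35, 2.90, 4.39, 3.63, 2.62 and 4.24 CPM in the 150 mg/kg libraries 2415 to 2420. Only 400 mg/kg 2422 and 150 mg/kg 2419 overlapped, and 400 mg/kg 2423 was the lowest of all 12. The means were 2.15 ± 0.585 CPM and 3.52 ± 0.710 CPM (SD, n = 6 each), with a log2 fold change of -0.71 (SE 0.17, edgeR adjusted p = 0.0495). Vehicle was at 2.89 ± 0.584 CPM (SD, n = 6), or 3.08 ± 0.604 CPM without 2407 and 2408 (SD, n = 4), and 30 mg/kg at 2.43 ± 0.401 CPM. Its call was the least stable of the 4, lost in 19 of 27 alternatives and with the 12 libraries alone (edgeR adjusted p = 0.111), with a range of adjusted p from 0.00791 to 0.244.

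**Figure D3:**
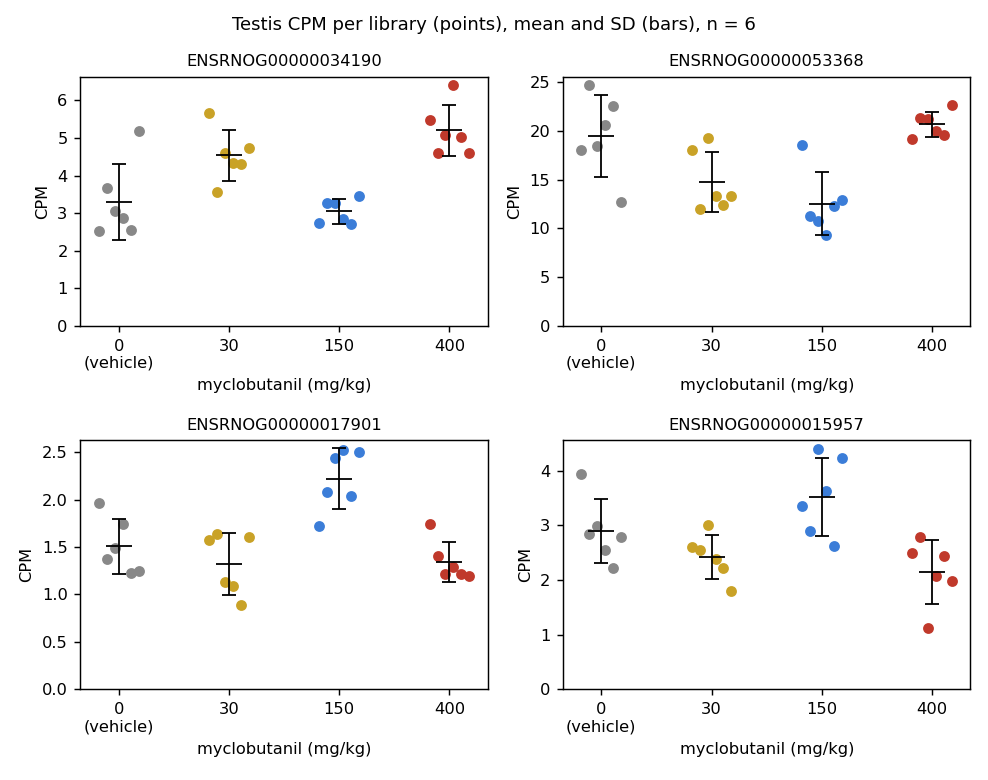
The panels plot CPM in each testis library (points) for the 4 IDs by dose of myclobutanil in mg/kg, with the group mean and SD as bars (n = 6). The 400 and 150 mg/kg means differ in every panel because the genes were chosen for it, and the 400 mg/kg mean is the highest in the 2 genes that rose.

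Ranked by size under the same rule as the 4 IDs, log2 fold changes lay between 0.50 and 0.77 for the top 12 of the genes that rose. For the top 12 that fell they lay between -0.71 and -0.33. Genes of middle and high expression made up most of the 134. The class of 10 to 100 CPM, with 6489 genes, held 68 that rose and 16 that fell, and of 2228 genes over 100 CPM, 24 rose and 6 fell. Among 5771 genes at 1 to 10 CPM, 9 rose and 6 fell, and among 2773 genes under 1 CPM, 5 rose. The share called was thus 1.29% and 1.35% in the upper classes and 0.26% and 0.18% in the lower ones. The median size of the called changes ran the other way, from 1.20-fold over 100 CPM to 1.46-fold at 1 to 10 CPM and 2.18-fold under 1 CPM, where only larger changes pass the test.

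Genes were also divided by where they are expressed, from the ratio of testis to liver in the 30 mg/kg libraries, which are not part of the comparison. Of 5473 genes at least 8-fold higher in testis, 58 rose and 7 fell, 1.19% in all. Of 10668 genes within 8-fold, 46 rose and 18 fell, 0.6%. Of 1120 genes at least 8-fold higher in liver, 2 rose and 3 fell, 0.446%. This order of the shares depended on expression. It held at 10 to 100 CPM (2.09%, 0.988% and 0.595%, the last being 1 of 168 genes). It also held under 1 CPM (0.743%, 0.137% and 0%), where few genes carry it (2 of 269, 3 of 2187 and 0 of 317). At 1 to 10 CPM the share was highest in genes high in liver (0.638%, 4 of 627, against 0.312% in testis and 0.155% within 8-fold). Over 100 CPM it was highest within 8-fold (1.49%, against 1.27% in testis and 0 of 8 in liver). Over whole classes, which were not tested, medians were near 0. The median log2 fold change of 400 over 150 mg/kg was 0.023 in genes high in testis, with 57.2% of them positive, -0.012 within 8-fold and -0.087 in genes high in liver, with 30.9% positive, against -0.0053 and 48.2% over all genes tested. Over 28 other settings the medians kept these signs, though the settings reuse all or most of the same libraries. Medians ran from 0.0095 to 0.041 in genes high in testis, from -0.027 to -0.0058 within 8-fold and from -0.17 to -0.046 in genes high in liver. Of these settings, the 1.5-fold limit and the fit that was not robust left the class medians unchanged.

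**Figure D4:**
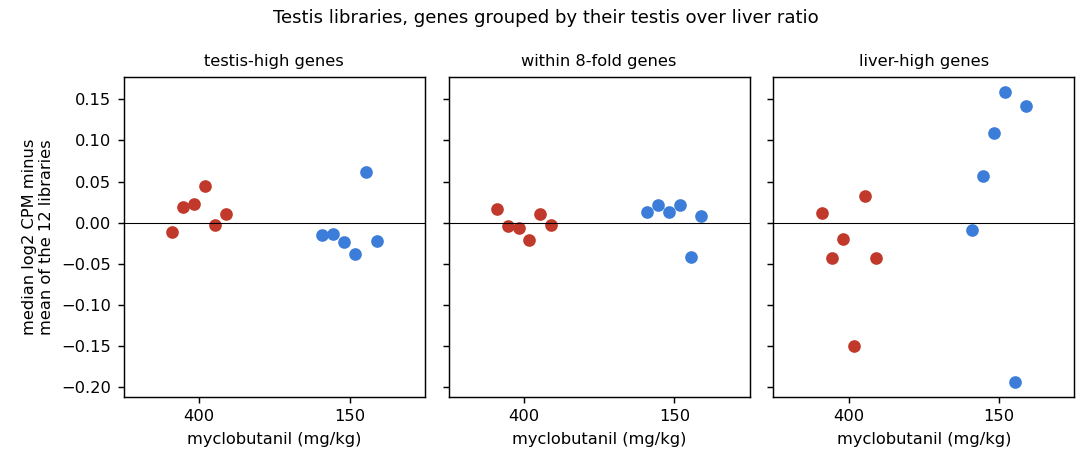
The points are the testis libraries at 400 (red) and 150 mg/kg (blue), and the vertical axis is the median over genes of log2 CPM minus the mean of the 12 libraries, for genes high in testis, within 8-fold and high in liver. The doses overlap in all 3 classes, and in genes high in liver 150 mg/kg 2419 is the lowest library.

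By library, the median deviation of genes high in liver ran from -0.15 to 0.032 (median -0.031) at 400 mg/kg and from -0.19 to 0.16 (median 0.083) at 150 mg/kg. The doses overlapped. Libraries 400 mg/kg 2424 and 150 mg/kg 2419 were the lowest of their groups. Without 150 mg/kg 2419 the class median of the log2 fold change was -0.13, and without both 150 mg/kg 2418 and 400 mg/kg 2424, the ends of the first principal component, it was -0.046.

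Where the 4 dose means lay is given as a description, since genes chosen for a difference between 400 and 150 mg/kg tend by that choice to have these doses at the ends. Of the 106 genes higher at 400 than at 150 mg/kg, 105 had their highest dose mean at 400 mg/kg and 95 their lowest at 150 mg/kg. Of the 28 lower genes, 25 had their lowest mean at 400 mg/kg and 13 their highest at 150 mg/kg. Over all genes tested, 29.1% had their highest and 30.3% their lowest mean at 400 mg/kg, and 21.0% had their lowest and 22.2% their highest at 150 mg/kg. Without vehicle 2407 and 2408 the counts were 105 and 90 of the 106, and 25 and 13 of the 28. The median log2 difference from vehicle was 0.084 at 30 mg/kg, -0.091 at 150 mg/kg and 0.22 at 400 mg/kg for the 106 genes, and -0.12, -0.0027 and -0.25 for the 28. Without those vehicle libraries it was 0.075, -0.10 and 0.21 for the 106, and -0.15, -0.0037 and -0.28 for the 28. As for the 4 IDs, the differences of 150 and 400 mg/kg from vehicle cannot be told apart from the split in reads of low alignment quality.

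The difference between 30 mg/kg and vehicle, which uses none of the 12 libraries, ran the same way as the one that chose the genes. In the fit of 24 libraries, 92 of the 106 genes had a positive log2 fold change of 30 mg/kg over vehicle (median 0.086) and 25 of the 28 a negative one (median -0.12), against 50.1% positive over all genes tested. None of the 134 was itself called there by edgeR, as for 0.00579% of all genes, while 26 of the 106 and 12 of the 28 had an unadjusted p under 0.05, as did 10.5% of all genes. Fitted on the vehicle and 30 mg/kg libraries alone, 93 of 104 and 3 of 28 were positive, against 51.4% of all genes. Without vehicle 2407 and 2408 it was 86 of 104 and 4 of 28, and without the deepest library of each dose 88 of 104 and 5 of 28. Genes of a set move together within a library, so these counts are not counts of independent events, and no p is given.

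**Figure D5:**
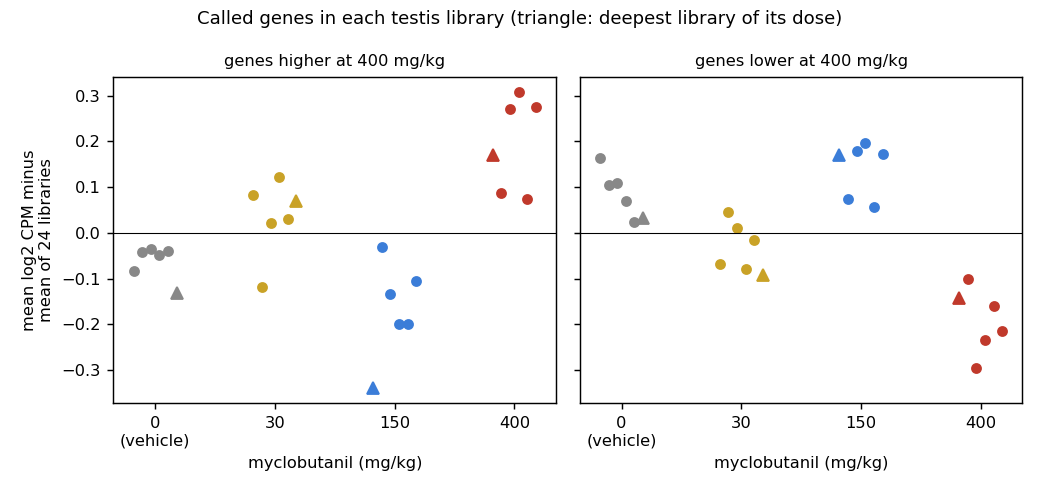
Each point is a testis library, placed by dose in mg/kg, and the vertical axis is the mean log2 CPM of the 106 genes higher (left) or 28 genes lower (right) at 400 mg/kg minus the mean of all 24 libraries. The 400 and 150 mg/kg libraries are apart because they chose the genes, and 5 of the 6 libraries at 30 mg/kg lie above all vehicle libraries in the left panel.

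Seen by library, the 106 genes lay 0.073 to 0.31 above the mean of all 24 testis libraries at 400 mg/kg, and 0.030 to 0.34 below it at 150 mg/kg, on the log2 scale. Libraries 400 mg/kg 2424, 2426 and 2423 were the highest, at 0.31, 0.28 and 0.27, and 150 mg/kg 2415 the lowest, at -0.34. The libraries nearest the other dose were 400 mg/kg 2425 at 0.073 and 2422 at 0.086, and 150 mg/kg 2416 at -0.030. At 30 mg/kg the values were -0.12 to 0.12 (median 0.050), where 2410 was low and the other 5 were above 0, and with vehicle -0.13 to -0.035 (median -0.045). For the 28 lower genes the ranges were -0.30 to -0.10 at 400 mg/kg, 0.057 to 0.20 at 150 mg/kg, -0.093 to 0.046 at 30 mg/kg and 0.023 to 0.16 with vehicle. The vehicle libraries other than 2407 and 2408 lay at -0.083 to -0.035 for the 106 genes and at 0.070 to 0.16 for the 28.

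Of 10 library measures, 1 passed the adjusted threshold between the doses. The share of all reads without a unique alignment averaged 16.8% ± 0.345 in the 400 mg/kg libraries and 17.4% ± 0.18 in the 150 mg/kg libraries (SD, exact permutation p = 0.00433 with n = 6, adjusted 0.0433 over 10 measures), and 5 of the 6 libraries at 400 mg/kg were below all at 150 mg/kg. The share of reads outside genes was 11.6% ± 0.206 and 11.3% ± 0.204 (exact permutation p = 0.0195, adjusted 0.0974), which missed the threshold after adjustment. It ran from 11.1% to 12.1% at 30 mg/kg and from 10.9% to 11.2% with vehicle, and the share without a unique alignment from 15.8% to 17.4% and from 15.9% to 17.4% (17.2% at most without vehicle 2407 and 2408). With the share outside genes as a term of the 24-library fit, 209 genes were called, 84 of them among the 134. With the share without a unique alignment as a term, 3 were called (2090 at an unadjusted p under 0.05), 2 of them among the 134. In those fits the median log2 fold change was 0.34 and 0.31 for the 106 genes, and -0.31 and -0.30 for the 28. The part of the 10 most abundant genes in all gene reads averaged 5.11% ± 0.206 in 400 mg/kg libraries and 5% ± 0.214 in 150 mg/kg libraries (exact permutation p = 0.379), a difference within the spread of the libraries, as was that in the share of reads on no gene, 35.4% ± 0.284 and 35.7% ± 0.344 (exact permutation p = 0.145).

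In liver, the same step in dose changed 664 of 13275 genes in the edgeR fit of 24 liver libraries, 5% of those tested, 2.65% higher and 2.35% lower. Of the 106 genes that rose in testis, 68 were tested in liver, where 5 rose and 1 fell, 8.82% called against 4.85% of all genes tested in both tissues, and 49 of the 68 had a positive log2 fold change, 72.1% against 52% of those genes. Of the 28 that fell, 25 were tested in liver, where edgeR called 0 (4 at an unadjusted p under 0.05, or 16%, against 20.8% of all genes tested in both tissues) and 8 were positive. Their median log2 fold changes in liver were 0.076 and -0.046, beside 0.26 and -0.31 in testis for the same genes. The liver libraries carry the title numbers of the testis libraries that chose the genes. Testis and liver libraries of the same number deviated together (r 0.126 to 0.229), so the liver values are not independent support. The genes called in liver were called in testis at shares of 1.5% (higher in liver) and 0.375% (lower in liver), beside 0.776% of all genes. Of the 352 that rose in liver, 333 were tested in testis, where 5 rose (median log2 fold change 0.012), and of the 312 that fell, 267 were tested and 1 rose (median -0.043).

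The test of the difference between the tissues, on 48 libraries, called 138 genes, 0.757% of the 18221 tested. The step from 150 to 400 mg/kg was higher in testis than in liver for 51 of them and lower for 87. With the title number as a block, which pairs each testis library with the liver library of the same number, 73 were called. Among the 134 testis genes, 8 differed, 6 that rose and 2 that fell in testis, and 5 with the block. The 6 include a gene that has no fold change in the fit of the liver libraries (difference 1.31, edgeR adjusted p = 0.0446). None of the 4 genes given by ID was among the 8. For ENSRNOG00000053368 the test could not decide, since the liver libraries of both doses held 0 reads of it (SE 2531 on the log2 scale). ENSRNOG00000034190 was at 18.3 ± 6.35 CPM in liver at 400 mg/kg and 16.6 ± 3.66 CPM at 150 mg/kg (SD, n = 6, log2 fold change 0.034, SE 0.24, edgeR adjusted p = 0.954), and its difference between the tissues was 0.74 (SE 0.29, edgeR adjusted p = 0.270). ENSRNOG00000017901 was at 24 ± 9.33 and 29.5 ± 10.7 CPM in liver (log2 fold change -0.41, SE 0.26, edgeR adjusted p = 0.384), and ENSRNOG00000015957 at 0.219 ± 0.0946 and 0.258 ± 0.116 CPM (-0.33, SE 0.33, edgeR adjusted p = 0.604).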

How the data were processed

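Libraries of polyadenylated RNA keep the strand, per the labels' protocols. CASAVA 1.8, HISAT2 and HTSeq 0.6.1 are named per the submitters' processing notes. Genome build, annotation and the strand setting of the counting: not given in the sources used here. Then the authors deposited whole-number read counts per Ensembl gene, not normalised. The 5 lines of no gene, 35% to 36% of reads in the 12 libraries, entered neither library sizes nor tests.

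Counts were tested with edgeR 4.0.16 (R 4.3.3; filterByExpr, TMM, robust quasi-likelihood fit, 1 mean per dose, all 24 testis libraries, Benjamini-Hochberg adjustment), after a test on simulated counts. Testis CPM are TMM-scaled, and log2 CPM use a prior count of 2. The liver CPM of the IDs and the CPM of the tissue ratio are scaled to total gene reads only. Alternatives include DESeq2 1.42.0 and limma-voom 3.58.1, the latter always with a quality weight for each library. Library measures were compared by exact permutation tests. The tissue ratio adds 0.1 CPM.

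None of the 32545 IDs matched the 47357 reference genes, so 31 gene and marker lists were not applied and no sequence is shown. The naming rule took the 2 called genes per direction with the largest change, 1 CPM or more on average and every 400 mg/kg library on 1 side of the 150 mg/kg mean. The groups, classes and lists were chosen with earlier results of these data known. Library pairs within a dose differed beyond sampling noise, and their chi-square divided by its degrees of freedom ran from 6.75 to 19.2 in 30 pairs. The labels do not say that libraries came from separate animals, so p-values measure the spread between these libraries. Testis and liver libraries with the same title number deviated together (r 0.126 to 0.229 over 10065 genes, 12 of 12 pairs over 0.1), and the number was used as a block across tissues.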

Additional observations from a re-analysis of the deposited data

Results flagged for a closer look

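Dixon's test for 1 library apart from its group of 6 was made 36 times, for 10 library measures in the 2 doses and for the CPM of the 4 IDs in the 4 dose groups, and gave 5 marks on 4 libraries, where chance marks about 1 in 20. Gene reads of 400 mg/kg 2421 (43.1 M) and of 150 mg/kg 2415 (49.2 M) were the highest of their groups, and 150 mg/kg 2415 also had the most genes with a read, 21138. The lowest share of reads on no gene in its group, 35.03%, was that of 150 mg/kg 2419, and the lowest share of ambiguous reads, 0.772%, that of 400 mg/kg 2426. By the test of the difference between the tissues, the step from 150 to 400 mg/kg differed between testis and liver for 138 genes, 73 with the title number as a block.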

How the results depend on the processing

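The count of 134 called genes (106 higher, 28 lower) moved with most settings. It was 400 (287, 113) with DESeq2, 218 with limma-voom (69 lower), 59 (44, 15) without a filter, 1 (1, 0) with only the 12 libraries, 62 (44, 18) without vehicle 2407 and 2408, 11 (9, 2) at 1.5-fold or more, and 1 (1, 0) with 5 against 5 libraries. With a mean CPM of at least 1, 44 were lower. Chosen after seeing the data were the share of reads outside genes as a term, 209 (51 lower), that without a unique alignment, 3 (3, 0), DESeq2 on the 12 libraries, 425 (302, 123), limma-voom on them, 24 (13, 11), and a fit without 2418 and 2424, 0 (0, 0; 1805 at an unadjusted p under 0.05). The cause was not tested. Within 1.5 times stayed RLE size factors (109), the fit that was not robust (119) and the deeper libraries as a term (103). Leaving out 1 library gave 0 to 246 genes, 0 to 200 higher and 0 to 58 lower. The 4 IDs kept their direction under all alternatives, which reuse all or most of the libraries that chose them.

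The tissue difference, 138 genes, gave 286 with DESeq2, 84 with only the 24 libraries of both doses, 73 with the replicate block and 80 to 174 with 1 title number left out. Total gene reads differed by -2.97 M with 5 against 5 libraries (exact permutation p = 0.0159) and by -5.18 to -1.28 M with 1 library left out, the share in the 10 most abundant genes by 0.0534 to 0.186 and the share on no gene by -0.414 to -0.211 percentage points. Without 150 mg/kg 2419 the share on no gene passed the threshold (exact permutation p = 0.0238), as did total reads without 400 mg/kg 2421 (exact permutation p = 0.0195). Read numbers were low for 3 of the 4 IDs, at 34 to 236 per library, and for the called genes under 1 CPM. Beyond the fits with the deeper libraries as a term and without the deepest library of each dose, what depth did to these calls was not tested.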
